A study of Oikopleura dioica with 2 samples.

Results

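The transcripts described here are those that were abundant in larvae of Oikopleura dioica at 8 hours post-fertilization (hpf) and had no signal in unfertilized eggs. They were chosen by 2 deposited values, a level of 100 FPKM or more in larvae and a level of exactly 0 in eggs, where FPKM is the number of sequenced fragments per kilobase of transcript, corrected for how many fragments a library holds. Of the 57962 assembled components in the table, 151 met both limits, which is 0.261%. Both values that chose the components are therefore given below as a description and not as a result of a comparison. A component is the unit that the table lists as a gene: a group of 1 or more assembled transcripts, named by a component number and a subcomponent number.

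Oikopleura dioica is a planktonic tunicate, a close invertebrate relative of the vertebrates, that keeps a tadpole body with a trunk and a tail through its life. In animals the egg is loaded with maternal RNA, which runs the first cell divisions. Transcription from the embryo's own genome then takes over while maternal RNA is cleared. By the swimming larval stage, tissues such as notochord, tail muscle, nervous system and the trunk epithelium that later secretes the animal's filter-feeding house are being formed, so genes that serve these tissues are among those that can first be transcribed after fertilization.

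The larval RNA came from whole larvae at 8 hpf raised from 63 adult pairs, and the egg RNA from unfertilized eggs of 46 females. Per the labels' protocols, all animals were untreated, were reared at 1 temperature and descended over several generations from a single male and female, which narrows but does not remove allelic differences between the pools. RNA was selected with oligo dT, so RNA without a poly(A) tail was not measured well in either stage. The labels list 1 sample for each stage and the design text of the series mentions 2 biological replicates. The deposited table has 1 value per stage. Every value in it ends in 0 or 5 at the thousandths place, as a mean of 2 values with 2 decimals would. An egg value of exactly 0 would then mean that both values behind it were 0.00. With 1 value per stage there is no SD, no p-value and no replicate check for any difference given here. In whole larvae, fewer cells that carry an RNA and less of it per cell cannot be told apart.

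The identifiers could not be tied to gene names. None (0) of the 151 matched the 17178 genes of the RefSeq table for assembly OKI2018_I68_1.0, and the deposited table holds no sequence, length or coordinate. The functions of these transcripts are therefore not described, the stage labels could not be checked against marker genes, and only the 2 components with the highest larval levels are named. One gene can appear as several components, as fragments, alleles or close copies, and the reads of close copies can be divided among them when abundances are estimated. Counts of components are thus not counts of genes.

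Most of the 151 components lay close to the larval limit. Their larval levels had a median of 144 FPKM with quartiles of 111 and 217 FPKM, ran up to 1505 FPKM, and averaged 209 FPKM. In the range of 100 to 150 FPKM lay 80 components (53.0%), in 150 to 200 FPKM 24, in 200 to 300 FPKM 32, in 300 to 500 FPKM 7, in 500 to 1000 FPKM 5, and at 1000 FPKM or more 3. The values just inside the limit were 100.005, 100.41 and 100.56 FPKM. Just outside it, with eggs likewise at 0, were 99.255, 99.2 and 99.075 FPKM. Between 100 and 105 FPKM there were 26 components and between 95 and 100 FPKM there were 27, so numbers just above and just below the limit were similar. Exactly repeated larval values, described below, enter both numbers. Of the 26, 8 were at 100.725 FPKM and 2 at 103.64 FPKM, and of the 27, 4 were at 95.83 FPKM. The 2 numbers without repeated values were not compared.

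**Figure D1:**
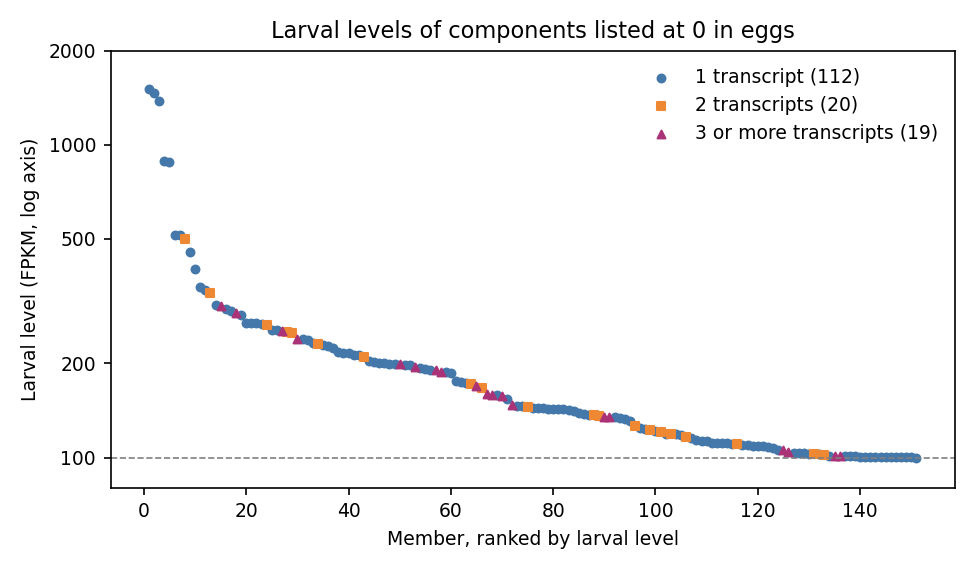
Larval level in FPKM (vertical log axis) of the 151 components that reached 100 FPKM in larvae and were at 0 in eggs, ranked from highest to lowest, with colour and shape giving the number of transcripts and a dashed line at the limit of 100 FPKM. Of the 151, 3 lie at 1000 FPKM or more and 80 between 100 and 150 FPKM.

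The upper end was formed by the 5 highest components, with breaks in level after number 3 and after number 5. The highest, comp11003_c1, was at 1505 FPKM in larvae and 0 in eggs and had a single transcript. The second, comp24353_c1, was at 1464 FPKM in larvae and 0 in eggs, also with a single transcript. The next 3 were at 1382, 886 and 885 FPKM in larvae and at 0 in eggs. Number 3 was 1.56 times number 4, and number 5 was 1.71 times the component below it, which was at 516 FPKM. Even comp11003_c1 was only number 113 in the order of all larval levels, with 0.119% of the larval FPKM, and comp24353_c1 was number 116 with 0.115%.

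Together the 151 components held 2.49% of the larval FPKM. The larval limit alone was met by 1072 components that held 66.2% of it, so the 151 made up 14.1% of these abundant components but 3.76% of their summed level. Within the 151, the first 3 held 13.8% of the summed level and the first 10 held 26.9%. On the scale of log2(FPKM + 1), with a pseudocount of 1 FPKM, their differences (larvae minus eggs) ran from 6.66 to 10.56 with a median of 7.18. These differences restate the larval level, because the egg value is 0 by the rule, and their size is set by the pseudocount. The median was 10.49 with a pseudocount of 0.1 FPKM and 3.94 with one of 10 FPKM. With 1 FPKM added to both stages, all 151 were at least 4-fold higher in larvae by construction. Of all components, 28.8% showed that difference on the same scale, and that share also rests on the pseudocount. Without a pseudocount, no fold change is given against an egg level listed at 0.

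A level of 0 in eggs was less frequent among abundant larval components than among weak ones. Of all 57962 components, 74.7% were listed at 0 in eggs, many of them also at 0 in larvae, and among the 31666 components that reached 1 FPKM in larvae the share was 58.4%. By larval level, the share listed at 0 in eggs was 74.9% at 1 to 2 FPKM, 75.4% at 2 to 5 FPKM and 59.7% at 5 to 10 FPKM. It was 46.5% at 10 to 20 FPKM, 46.0% at 20 to 50 FPKM and 33.6% at 50 to 100 FPKM. Above the limit it was 19.2% at 100 to 200 FPKM (104 of 542), 12.6% at 200 to 500 FPKM (39 of 309), 6.25% at 500 to 1000 FPKM (5 of 80) and 2.13% at 1000 FPKM or more (3 of 141).

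Between 20 and 1000 FPKM in larvae the share below 1 FPKM in eggs stayed between 56.0% and 62.0%, while traces replaced zeros within it. The share with an egg value above 0 and below 1 FPKM was 16.0% at 20 to 50 FPKM in larvae, 23.8% at 50 to 100 FPKM, 38.7% at 100 to 200 FPKM, 43.4% at 200 to 500 FPKM and 55.0% at 500 to 1000 FPKM. Zeros and traces together came to 62.0% at 20 to 50 FPKM in larvae, 57.4% at 50 to 100 FPKM, 57.9% at 100 to 200 FPKM, 56.0% at 200 to 500 FPKM and 61.3% at 500 to 1000 FPKM. They came to 17.0% at 1000 FPKM or more. The 151 components are thus the zero end of a larger set of 560 that were at 100 FPKM or more in larvae and below 1 FPKM in eggs, and the division between zero and trace changed with the larval level. The read counts and lengths that set the smallest measurable egg level are not in the table, and their part in this division was not tested.

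**Figure D2:**
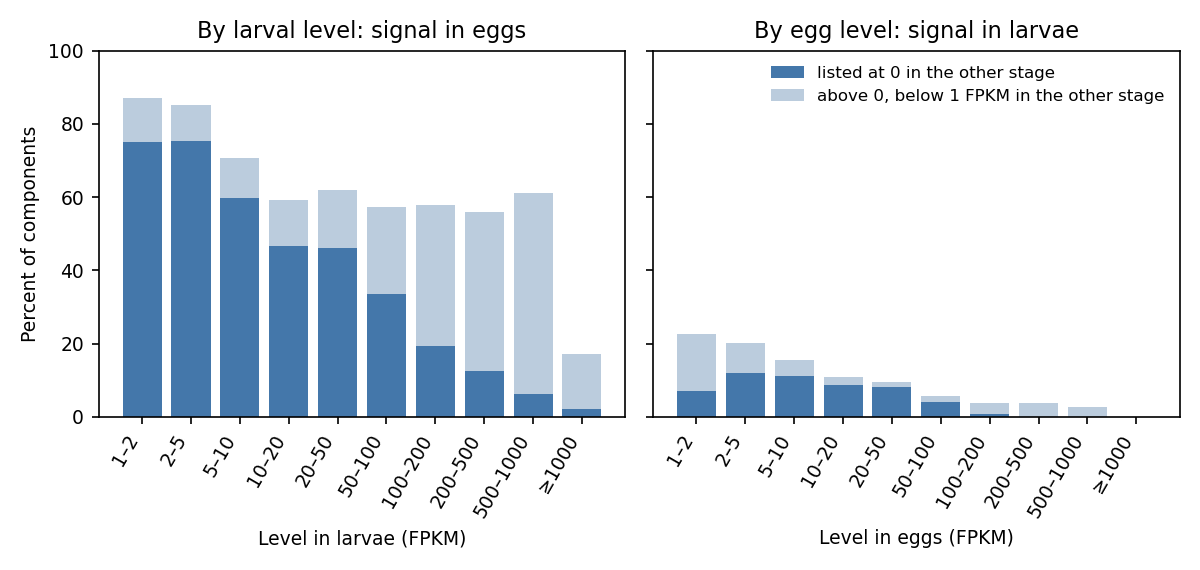
Percent of components that were listed at 0 (dark) or above 0 and below 1 FPKM (light) in the other stage, by larval level (left panel, signal in eggs) and by egg level (right panel, signal in larvae), in classes of FPKM. The dark share falls along the left panel to 19.2% at 100 to 200 FPKM and 2.13% at 1000 FPKM or more while the light share grows to 55.0% at 500 to 1000 FPKM, and in the right panel the dark share is 12.0% at 2 to 5 FPKM and 0.756% at 100 to 200 FPKM.

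The opposite pattern was rare. Against the 151 of 1072 abundant larval components at 0 in eggs (14.1%), there were 5 of 1227 components at 100 FPKM or more in eggs that were listed at 0 in larvae (0.407%). The 5 lay between 100.4 and 178 FPKM in eggs, with a median of 122 FPKM. At a limit of 200 FPKM the numbers were 47 of 530 larval components listed at 0 in eggs and 0 of 566 egg components listed at 0 in larvae. Zeros were also more frequent in eggs over components of all levels. By component number (below 10000, to 20000, to 30000 and above), 88.0%, 67.0%, 35.7% and 92.3% were at 0 in eggs. The shares at 0 in larvae were 54.4%, 22.7%, 12.9% and 62.6%. These shares include components at 0 in both stages and are not split by level. By level, 19.2% of components at 100 to 200 FPKM in larvae were at 0 in eggs, against 0.756% the other way. At 50 to 100 FPKM the shares were 33.6% and 4.14%, and at 1 to 2 FPKM 74.9% and 6.93%. A contrast in the same direction was thus present below the limit too, and its size differed by level.

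Among the 1072 abundant larval components, those at 0 in eggs were set beside the 409 with a trace in eggs (above 0 and below 1 FPKM) and the 512 at 1 FPKM or more in eggs. The 151 were the least abundant in larvae, with a median of 144 FPKM against 195 FPKM for the 409 with a trace and 236 FPKM for the 512. At 1000 FPKM or more in larvae were 3 of the 151 (1.99%), 21 of the 409 (5.13%) and 117 of the 512 (22.9%). The trace components had a median egg level of 0.17 FPKM with quartiles of 0.1 and 0.335 FPKM. Their lowest egg values were 0.015, 0.02 and 0.02 FPKM, the first of them in a component at 202 FPKM in larvae, while the lowest egg value above 0 in the whole table was 0.005 FPKM.

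The number of assembled transcripts, which the rule did not use, was lower in the components at 0 in eggs than in the other abundant larval components, and close to that of all components detected in larvae. Of the 151, 112 (74.2%) had 1 transcript, 20 (13.2%) had 2 and 19 (12.6%) had 3 or more. Of the 409 with a trace in eggs, 60.1% had 1 transcript and 22.5% had 3 or more, and of the 512 at 1 FPKM or more in eggs the shares were 66.0% and 22.7%. The mean number of transcripts was 1.91 for the 151, 3.06 for the 409 and 3.29 for the 512. Over all components detected in larvae 72.6% had 1 transcript and the mean was 1.89, and over the whole table the values were 83.9% and 1.50. Transcripts were counted as the assembly lists them, and whether their number moves with the read depth of each stage was not tested. These shares are descriptions of components, which are not replicates, and carry no test.

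Read in the other direction, the share listed at 0 in eggs was lower the more transcripts a component had. Of the abundant larval components it was 16.1% of the 696 with 1 transcript, 13.4% of the 149 with 2, 9.09% of the 154 with 3 to 9, and 6.85% of the 73 with 10 or more. The median larval levels of these 4 classes were 216, 184, 173 and 159 FPKM. Among all components at 1 FPKM or more in larvae the same shares were 66.3%, 44.4%, 31.5% and 17.5%. The 5 components with 10 or more transcripts lay between 101 and 194 FPKM in larvae, with a median of 106 FPKM, and the one with the most had 32 transcripts. The single-transcript components spanned 100.005 to 1505 FPKM with a median of 143 FPKM, those with 2 transcripts 102 to 501 FPKM with a median of 141 FPKM, and those with 3 to 9 transcripts 104 to 305 FPKM with a median of 178 FPKM.

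**Figure D3:**
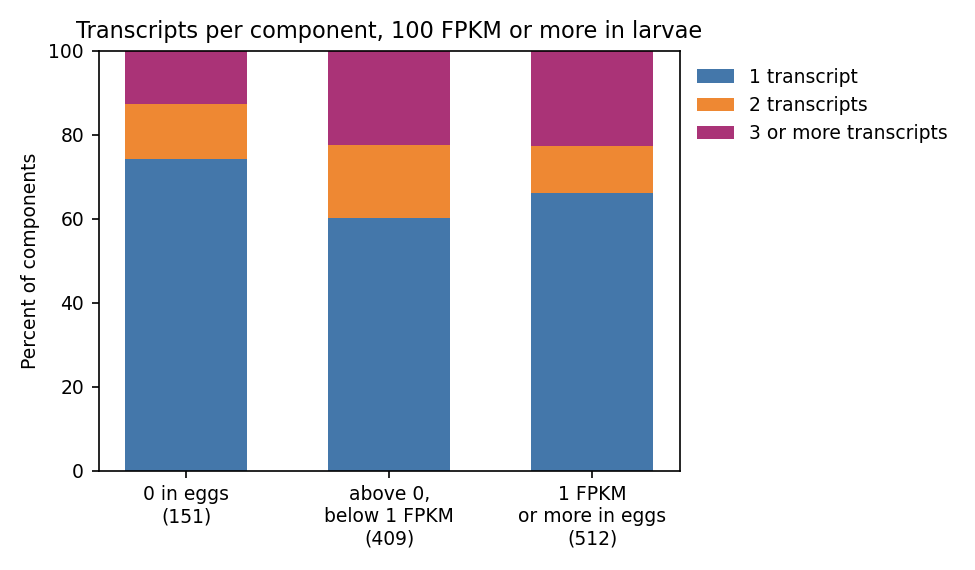
Percent of components with 1, 2 or 3 or more assembled transcripts, among the 1072 components that reached 100 FPKM in larvae, for the 151 at 0 in eggs (left), the 409 above 0 and below 1 FPKM in eggs (middle) and the 512 at 1 FPKM or more in eggs (right). Single transcripts make up 74.2% of the 151, 60.1% of the 409 and 66.0% of the 512.

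Subcomponents that share a component number are groups of transcripts that the assembly placed together, and can be parts or relatives of 1 gene. Of the 151 components, 115 were alone under their number and 36 (23.8%) had other subcomponents, against 25.9% of the 409 with a trace in eggs and 31.8% of the 512 at 1 FPKM or more in eggs. The share was 20.6% among all components detected in larvae and 20.1% in the whole table. The 36 lay under 35 numbers, as 1 number held 2 of them, at 307 and 200 FPKM in larvae. Besides the 36, these numbers held 65 other subcomponents. Of the 65, 40 were at 1 FPKM or more in larvae, 13 at 100 FPKM or more in larvae, and 8 at 1 FPKM or more in eggs. At 0 in eggs were 48 of the 65 (73.8%), near the 74.7% of all components, and 24 of these were at 0 in both stages.

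The 36 differed in the egg signal of their other subcomponents. In 23 of them every other subcomponent was listed at 0 in eggs. In 7 the highest egg value of another subcomponent was above 0 and below 1 FPKM, and in 6 it was 1 FPKM or more. This split was not computed for other components, and 74.7% of all components were listed at 0 in eggs. It is therefore not given as a trait of the 36. In 9 of the 23 the other subcomponents were at 0 in larvae too. Of the 36, 28 were the highest of their number in larvae. The rule favours this, as it asks for 100 FPKM or more in larvae, which 13 of the 65 other subcomponents reached. The 28 are thus no result about these components. For comp11003_c1 the only other subcomponent was at 0 in both stages.

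In a few cases the egg signal lay in another subcomponent of the same number. The clearest was comp24353_c1, at 1464 FPKM in larvae and 0 in eggs, which had 2 other subcomponents. One of these was at 443 FPKM in larvae and 3057 FPKM in eggs, so that summed over the number the egg level was above the larval one. A component at 240.0 FPKM in larvae had another subcomponent at 3863 FPKM in larvae and 1005 FPKM in eggs. These were the 2 cases with another subcomponent at 100 FPKM or more in eggs. Whether reads were divided differently among similar sequences in the stages was not tested.

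In the other 4 cases the partner was much higher in larvae and low in eggs. A component at 158 FPKM in larvae shared its number with one at 17936 FPKM in larvae and 4.815 FPKM in eggs, and held 0.874% of the larval level of that number. A component at 885 FPKM had a partner at 3481 FPKM in larvae and 1.51 FPKM in eggs. A component at 255 FPKM had a partner at 1999 FPKM in larvae and 2.01 FPKM in eggs. A component at 198 FPKM had 2 partners with 1478 FPKM in larvae and 22.3 FPKM in eggs between them. In these 4 the partner showed the same direction as the component at 0, with a larger larval level and an egg level above 0.

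**Figure D4:**
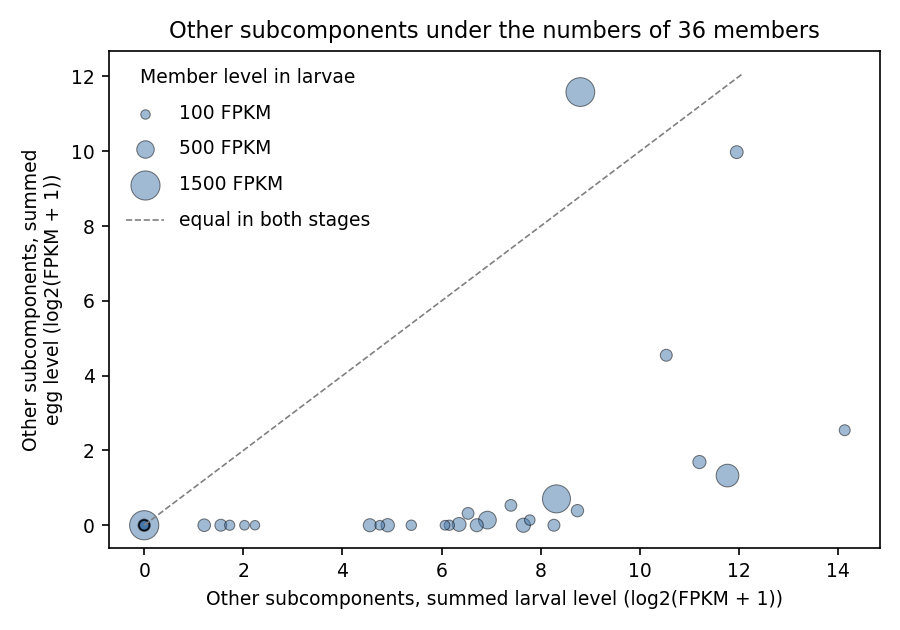
Summed larval level (horizontal axis) and summed egg level (vertical axis) of the other subcomponents under the numbers of the 36 components that have any, both as log2(FPKM + 1), with the area of a point growing with the component's own larval level and a dashed line where the stages are equal. In 23 of the 36 the other subcomponents sum to 0 in eggs, and the 1 point above the line belongs to comp24353_c1.

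At the lower end of the list, larval values were repeated exactly. Of the 151 components, 12 (7.95%) shared their larval value to the thousandth of an FPKM with another of the 151: 8 were at 100.725 FPKM, 2 at 103.64 FPKM and 2 at 111.355 FPKM. All 12 had a single transcript. Up to the highest of these values there were 40 of the 151 components. Among the abundant larval components above 0 in eggs, 12 of 921 (1.30%) shared a value with another of them, and none (0) of the 75 in the range up to 111.355 FPKM did.

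The value shared by 8 components was the sum of the values most often repeated between 50 and 51 FPKM. Of the components at 0 in eggs, 27 were at 50.285 FPKM in larvae and 17 at 50.44 FPKM, and these add to 100.725 FPKM. Double the lower value is 100.57 FPKM and double the upper is 100.88 FPKM, and 1 of the 151 components stood at each. Repeated values at a sum recurred below the limit. There 30 components at 0 in eggs were at 45.55 FPKM and 28 at 45.69 FPKM in larvae. At their sum of 91.24 FPKM were 11 components at 0 in eggs. Likewise 20 were at 47.84 FPKM and 19 at 47.99 FPKM, and 4 at their sum of 95.83 FPKM. Doubles did not recur in full. For the pairs from 45 and 47 FPKM, 1 and 3 components stood at double the lower value. None (0) stood at double the upper. Pairs were taken only from the ranges 45 to 46, 47 to 48 and 50 to 51 FPKM. In the 3 pairs the upper value was 1.0031 times the lower. Whether whole fragments on transcripts of 1 length, averaged over 2 libraries of slightly unequal depth, lie behind these steps was not tested. FPKM divides by length, so on a short transcript few fragments give a high value. Lengths and fragment counts are not in the table, and how many fragments lie behind these values was not tested.

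**Figure D5:**
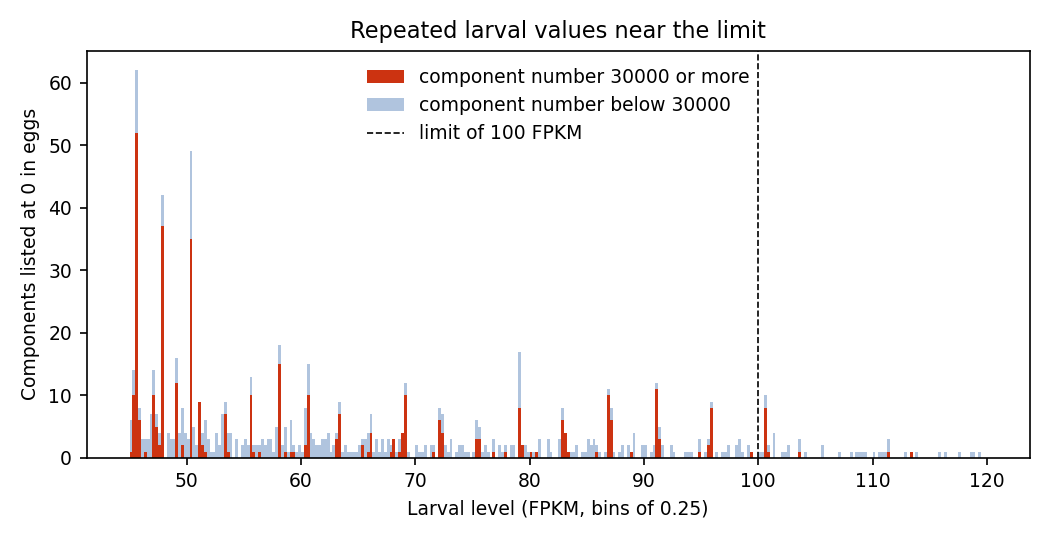
Number of components at 0 in eggs by larval level from 45 to 120.0 FPKM, in bins of 0.25 FPKM, with component numbers of 30000 or more in red, lower numbers in blue and a dashed line at 100 FPKM. Spikes stand at repeated values such as 45.55 and 50.285 FPKM, and the spike just above the limit holds the 8 components at 100.725 FPKM.

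The 10 components at 100.57, 100.725 or 100.88 FPKM were all single transcripts, and 9 of them had component numbers of 30000 or more, a boundary chosen after the values were seen. Numbers of 30000 or more made up 25644 rows, 25641 of them with 1 transcript. In all, 15 components with such numbers reached 100 FPKM in larvae and 14 of these were at 0 in eggs, between 100.57 and 131 FPKM in larvae with a median of 101 FPKM. That share of 93.3% was close to the 92.3% listed at 0 in eggs among all components with such numbers. Among lower numbers the share of abundant larval components at 0 in eggs was 15.5% (11 of 71) below 10000, 20.7% (80 of 386) from 10000 to 20000 and 7.67% (46 of 600) from 20000 to 30000. Of all components in these 3 classes, 88.0%, 67.0% and 35.7% were listed at 0 in eggs. How numbers were given is not stated in the sources used here. Without the 14, 137 components remained with a median of 158 FPKM in larvae, and without the 12 that shared a value, 139 remained, also with a median of 158 FPKM. The components above 200 FPKM in larvae were not touched by either step.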

How the data were processed

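RNA-seq of larvae at 8 hpf and of unfertilized eggs was read as strand-specific paired ends of 90 bp with inserts of 200 bp on an Illumina HiSeq instrument, per the labels' protocols. The authors estimated abundances with RSEM, per the submitters' processing notes, and deposited linear FPKM values. The file's name speaks of log2. No source used here gives the RSEM version, the assembler, any filter or a genome build. The larval FPKM summed to 1269958 and the egg FPKM to 1158185. The read depth is not given, so no counting interval was computed. There were 0 unused columns.

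The rule was applied to the 57962 rows as deposited. Detection was set at 1 FPKM. Component numbers were read from the identifiers, and repeated values were compared in thousandths of an FPKM. The components and classes were chosen with earlier results of these data known. The rule for names was to give the 2 components with the highest larval level if no gene names were paired. Alternatives were other limits, pseudocounts and scalings, with subcomponents summed and components with repeated values or high numbers left out. A share counted as unchanged within its 95% Wilson interval, and a number of components within 1.5 times. The interval served only as a margin and measures no sampling error. Components are not replicates, and the alternatives share many of the same components. The functions were tested on simulated data. The software was Python 3.11.15 with pandas 2.3.3, numpy 2.4.6, matplotlib 3.10.9 and scipy 1.17.1.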

Additional observations from a re-analysis of the deposited data

How the results depend on the processing

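No paired analysis was possible because the table has 1 value per stage, which also leaves no replicate to leave out. Summed subcomponents, the exclusions and the trimmed mean over components above 0 were chosen after seeing the data. The number of components, 151, depended on both limits and on scaling. It was 696 at a larval limit of 50 FPKM and 47 at 200 FPKM, 250 with eggs below 0.1 FPKM and 560 with eggs below 1 FPKM. Scaling moves larval values across the limit and leaves egg zeros at 0. The number was 564 with a trimmed mean over components at 1 FPKM or more in both stages (30% of ratios and 5% of levels trimmed at each end), which raised larval values 1.80-fold. It was 89 with the same mean over components above 0, which lowered larval values 1.35-fold. Scaling to the egg sum lowered them 1.10-fold and gave 117, which counted as unchanged. The number was 5 with the upper quartile, which lowered larval values 6.44-fold. That quartile was taken over components above 0 in either stage, so it includes components listed at 0 in eggs. At the larval limits of 50 and 200 FPKM the median larval level was 72.8 and 266 FPKM, the share of larval FPKM 5.43% and 1.41%, the share with other subcomponents 14.7% and 31.9%, and the share of abundant larval components at 0 in eggs 25.8% and 8.87%. With eggs below 0.1 and below 1 FPKM the median was 147 and 184 FPKM and the share of larval FPKM 3.84% and 13.3%. With eggs below 1 FPKM, 36.1% had 2 or more transcripts, against 25.8%. With subcomponents summed the median was 143 FPKM and the share of larval FPKM 2.12%. Without repeated values these were 157.7 FPKM and 2.40%, and without numbers of 30000 or more 158.1 FPKM and 2.57%. Both shares are of the larval FPKM left after the exclusion and not of the full sum. The second exclusion took out every component numbered 30000 or more, so its share is not comparable with the 2.49% of the full sum. Of components detected in larvae, 42.1% were at 0 in eggs at a detection limit of 10 FPKM and 57.0% with subcomponents summed, against 58.4%. The median log2 difference was 10.49 and 3.94 with pseudocounts of 0.1 and 10 FPKM. Of 51 alternatives, 34 moved a value and 17 left it unchanged. These values have no sign that could have turned around. Medians and shares of FPKM counted as moved even for small changes, such as a median of 142.5 against 144.0 FPKM with subcomponents summed. Log2 differences move with the pseudocount by construction. The tally is therefore no measure of robustness. The causes of these changes were not tested.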
